A study of Mus musculus with 18 samples.

Results

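The 10 genes described here encode the spindle assembly checkpoint proteins and the Aurora kinases of the mouse: *Bub1*, *Bub1b*, *Bub3*, *Mad2l1*, *Mad1l1*, *Ttk*, *Aurka*, *Aurkb*, *Aurkc* and *Incenp*. They were chosen by gene symbol, and all 10 were found among the 28252 genes of the TPM table (a transcript level corrected for gene length and library depth) and, by Ensembl identifier, among the 53715 genes of the count table. RNA sequencing was available for 18 libraries in 6 groups of 3, covering the primordial follicle, the primary follicle and the metaphase II (MII) stage of the oocyte, each grown *in vivo* or *in vitro*. All mice were F1 females of a C57Bl/6j by CBA/J cross without any transgene. The follicle-enclosed oocytes were obtained by laser-capture microdissection of stained paraffin sections, and the RNA of all caps of a stage was pooled. Their *in vivo* groups came from uncultured ovaries of mice 14 days old, and their *in vitro* groups from ovaries taken at 7 days and cultured for 7 days in α-MEM with 10% serum, insulin, transferrin, selenium and follicle stimulating hormone. MII oocytes grown *in vivo* were ovulated by adult mice after menopausal and chorionic gonadotropin. MII oocytes grown *in vitro* came from ovaries cultured in the same way, from which secondary follicles were isolated, kept in alginate beads for 12 days and induced with chorionic gonadotropin. Each MII tube held 10 oocytes.

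The spindle assembly checkpoint holds a dividing cell in metaphase until its kinetochores are attached to spindle microtubules. The kinase encoded by *Ttk* starts the signal, *Bub1* and *Bub3* products gather at the kinetochore, the *Mad1l1* product loads the *Mad2l1* product there, and the *Mad2l1* and *Bub1b* products restrain Cdc20, the activator of the anaphase-promoting complex. Aurora kinases correct faulty attachments and build the spindle. Aurora A acts at spindle poles, Aurora B acts at centromeres in a complex with the scaffold encoded by *Incenp*, and Aurora C is a germ cell paralogue of Aurora B that joins the same complex in meiosis. Oocytes of primordial and primary follicles are held in prophase of meiosis I, while MII oocytes carry an assembled spindle.

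The 12 microdissected libraries held between 15149564 and 29205503 counts in genes, and the 6 MII libraries between 7334817 and 9978830. A level of 3 reads corresponded to 0.103 to 0.198 CPM, counts scaled to library size, in the former and to 0.301 to 0.409 CPM in the latter. The 12 oocyte markers together reached 325 to 1949 TPM in the microdissected and 6697 to 15924 TPM in the MII libraries, and *Sohlh1* was at 0 in all MII libraries grown *in vivo*. The 10 granulosa cell markers summed to 9.11 to 2254 TPM in the microdissected libraries, and 8 stroma and theca markers to 453 to 29933 TPM, so that markers of other cells were detected too. In MII libraries the stroma and theca markers summed to at most 3.46 TPM and the granulosa cell markers to 29.4 to 76.5 TPM. The 4 endothelium markers summed to 40.3 to 98.3 TPM in MII and to 0 to 69.7 TPM in the microdissected libraries. Of these, *Cdh5* was at 0 in all MII libraries, as were the granulosa cell markers *Foxl2* and *Fst*. In MII *in vivo* the granulosa cell markers *Amh*, *Inha*, *Inhbb* and *Hsd17b1* were at 0 too. The other markers of both lists were detected in each MII group. Nothing in the labels ties the libraries of a group to separate animals, so p-values measure the spread between these libraries, which may be technical. In bulk libraries such as these, fewer cells of a type and less RNA per cell cannot be told apart.

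*Aurkc*, *Bub1b*, *Aurka* and *Mad2l1* were abundant in MII oocytes and low or absent in oocytes of primordial and primary follicles, in every library. *Bub1b*, the checkpoint protein that holds Cdc20, was at 1114, 569 and 661 TPM in the MII libraries grown *in vivo* and at 611, 917 and 810 TPM in those grown *in vitro*. Its highest microdissected library, of primordial follicles grown *in vitro*, was at 27.1 TPM. All 6 MII libraries thus lay above all 12 microdissected libraries, the lowest of the former at 21.0 times the highest of the latter. *Aurka*, the spindle pole kinase, stood at 150, 225 and 202 TPM in MII *in vivo* and at 175, 264 and 224 TPM in MII *in vitro*, against at most 3.94 TPM in the microdissected libraries. *Mad2l1*, the soluble arm of the checkpoint signal, was at 271, 57.7 and 84.9 TPM in MII *in vivo* and at 156, 192 and 174 TPM in MII *in vitro*. The microdissected libraries of *Mad2l1* ended at 23.2 TPM, so its margin was narrower than that of *Bub1b* or *Aurka*. The same separation held for 20.2% of the 20499 genes compared, beside 4 of the 10 members. MII and microdissected libraries differed in extraction kit, amplification and library method as well as in stage, and these cannot be told apart.

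*Aurkc*, the germ cell Aurora kinase, was at 951, 573 and 724 TPM in MII *in vivo* (5146, 2603 and 3733 reads) and at 311, 407 and 388 TPM in MII *in vitro* (1998, 2181 and 1928 reads). Oocytes of primordial follicles gave no read in 5 of 6 libraries and 3 reads in the other, and those of primary follicles grown *in vivo* gave 0, 0 and 1 read. Oocytes of primary follicles grown *in vitro* were the exception, with 156, 0 and 251 reads (14.8, 0 and 20.5 TPM). *Aurkc* was therefore detected before MII in a pair of libraries of 1 group, and library 2 of that group held none. A limit attaches to these values: 54.8% of the distinct 50-base stretches of *Aurkc* transcripts (914 of 1667) also occur in 10 other annotated genes, all pseudogenes, whereas at most 0.978% did so for any other member. The treatment of reads matching several genes is not given in the sources used here. The reads counted for these pseudogenes came to 3.74, 10.9 and 9.13% of *Aurkc* and pseudogene reads together in MII *in vivo*, and to 11.04, 12.3 and 11.7% in MII *in vitro*.

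**Figure D1:**
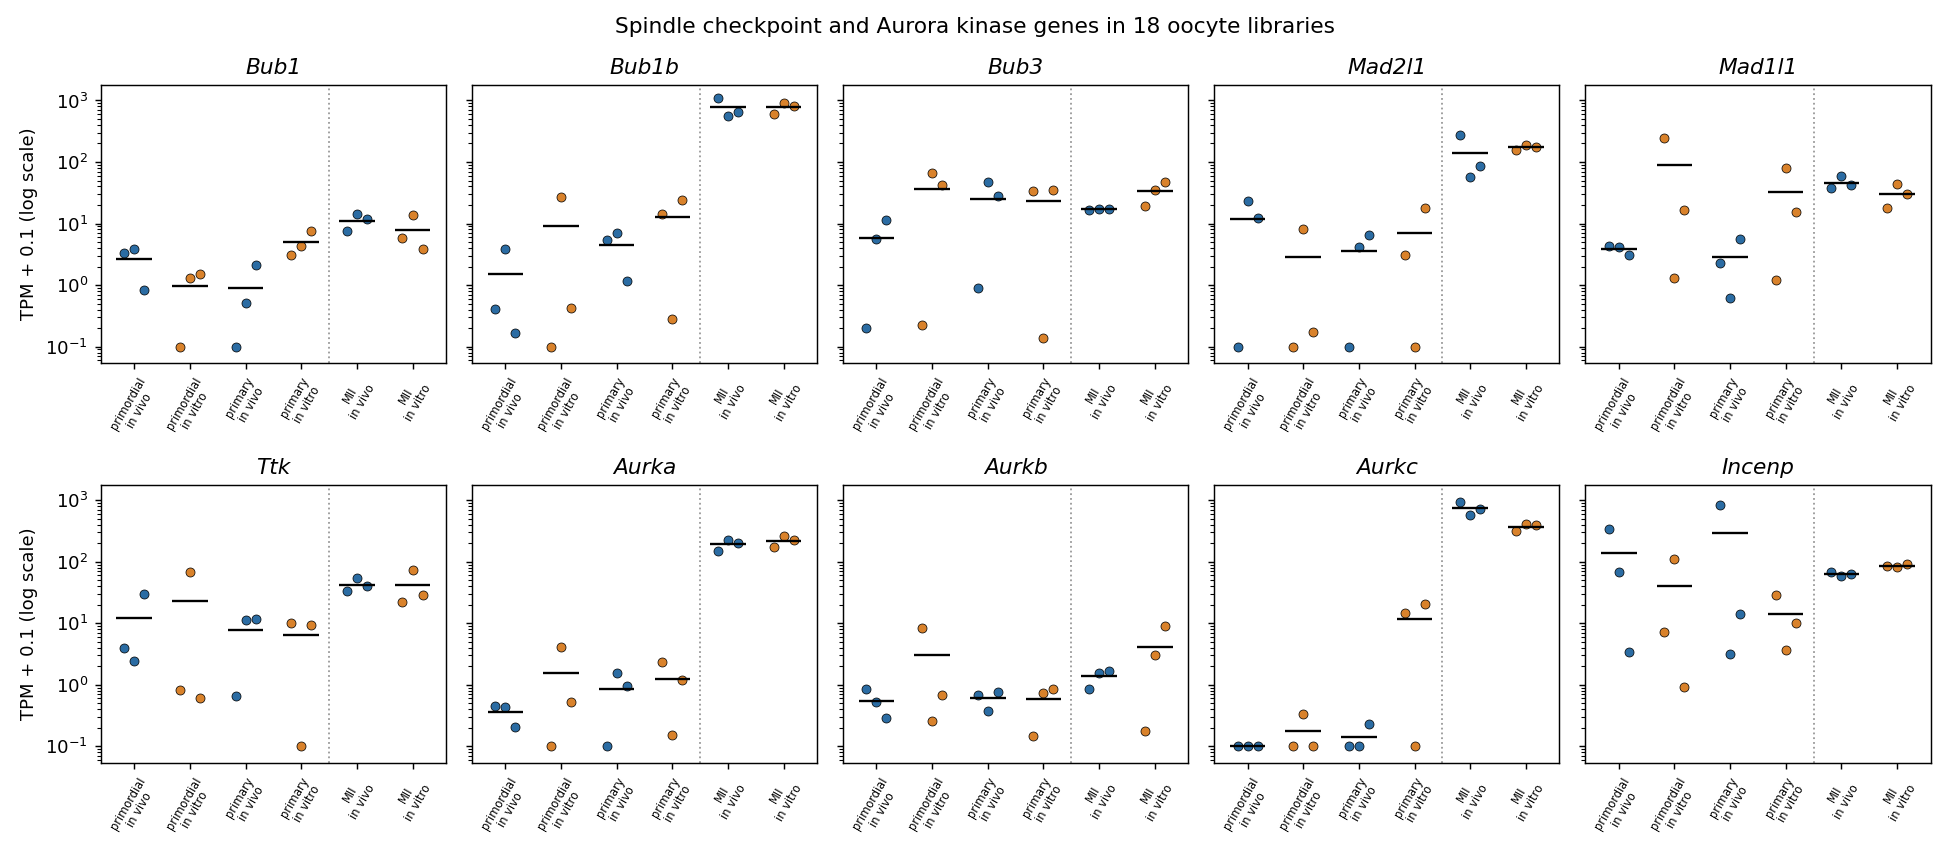
Level of each of the 10 genes in 18 libraries, as TPM + 0.1 on a log scale; points are libraries (blue *in vivo*, orange *in vitro*), short lines are group means, and the dotted line separates microdissected from MII libraries. *Aurkc*, *Bub1b*, *Aurka* and *Mad2l1* lie higher in all 6 MII libraries than in any microdissected library, whereas *Bub1*, *Bub3*, *Mad1l1*, *Ttk*, *Aurkb* and *Incenp* overlap.

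The bases before the annotated start are shown for the 3 members with the highest MII levels. These and *Mad2l1*, which is not shown, lay above every microdissected library in all MII libraries. They are RefSeq sequence of GRCm38.p6, written 5′ to 3′ on the strand of the gene, and capitals mark CCAAT or its reverse complement ATTGG, the letters of a promoter element common in cell cycle genes. *Bub1b* is chr2:118597961-118598210 on the plus strand, *Aurka* is chr2:172370571-172370820 on the minus strand, and *Aurkc* is chr7:6995135-6995299 on the plus strand, shortened to the 165 bases before the annotated gene.
Bub1b: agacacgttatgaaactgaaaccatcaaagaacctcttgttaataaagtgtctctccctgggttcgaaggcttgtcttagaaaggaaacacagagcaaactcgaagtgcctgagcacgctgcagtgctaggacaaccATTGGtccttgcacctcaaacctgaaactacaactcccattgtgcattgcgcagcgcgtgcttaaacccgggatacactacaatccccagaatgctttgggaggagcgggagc
Aurka: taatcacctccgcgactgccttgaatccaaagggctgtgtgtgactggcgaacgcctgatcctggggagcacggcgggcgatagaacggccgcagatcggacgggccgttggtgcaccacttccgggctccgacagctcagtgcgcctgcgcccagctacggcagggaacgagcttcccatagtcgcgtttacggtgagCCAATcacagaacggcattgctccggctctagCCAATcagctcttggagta
Aurkc: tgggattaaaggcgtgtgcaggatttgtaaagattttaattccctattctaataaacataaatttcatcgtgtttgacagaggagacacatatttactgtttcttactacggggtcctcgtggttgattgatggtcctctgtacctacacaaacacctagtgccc
*Bub1b* held the motif once, *Aurka* held it at 2 positions, and *Aurkc* and *Mad2l1* lacked these letters in the whole 250-base window searched. The motif occurred on either strand in 5 of the 8 members with a RefSeq promoter and in 33.8% of 32851 promoters of the same length. Members were counted as genes, holding a motif if any of their promoters did, and the background was counted by promoter. The letters TTTGAA, a form of the cell cycle element named CHR, were found on either strand for *Bub3* alone, 1 of 8 members. They occurred in 16% of all promoters, and no other form of the element was searched.

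The other 6 genes did not separate MII from microdissected libraries. *Bub1*, the kinase that marks inner centromeres, was at 7.50, 14.02 and 11.5 TPM in MII *in vivo* and at 5.76, 13.6 and 3.73 TPM in MII *in vitro*, and 3 microdissected libraries lay above its lowest MII library. Within MII libraries *Bub1b* exceeded *Bub1* in TPM by 40.6 to 217 times. *Ttk* ranged from 22.4 to 72.3 TPM in MII and from 0 to 67.6 TPM in the microdissected libraries. *Bub3*, the adaptor that carries *Bub1* and *Bub1b* products to kinetochores, reached 65.7 TPM in a primordial library grown *in vitro*, above its highest MII library at 46.3 TPM. It was near 0 in 3 microdissected libraries, with 5, 4 and 2 reads in a primordial *in vivo*, a primordial *in vitro* and a primary *in vitro* library. *Aurkb*, the somatic centromere kinase, stayed at or under 9.06 TPM in all 18 libraries.

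*Incenp* and *Mad1l1* had their highest values in single microdissected libraries. *Incenp* was at 341, 68.7 and 3.33 TPM in primordial follicles *in vivo*, at 6.98, 112 and 0.82 TPM in primordial follicles *in vitro*, at 848, 3.11 and 14.03 TPM in primary follicles *in vivo* and at 29.2, 3.58 and 10.0 TPM in primary follicles *in vitro*. The MII libraries held 66.8, 58.2 and 63.6 TPM *in vivo* and 84.1, 80.7 and 92.3 TPM *in vitro*, a far tighter spread. *Mad1l1* was at 245, 1.22 and 16.7 TPM in primordial follicles *in vitro* and at 1.11, 79.6 and 15.03 TPM in primary follicles *in vitro*, but at or under 5.41 TPM in all 6 microdissected libraries grown *in vivo*. Over the 10 genes and 4 microdissected groups, the coefficient of variation between the 3 libraries had a median of 0.953, 11 of 40 groups drew at least 90% of their summed TPM from 1 library, and 19 of 40 contained a library with 3 reads or fewer. Over the MII groups the median was 0.252, no group of 20 drew 90% from 1 library, and 1 of 20 contained such a library.

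The growth effect in MII oocytes was tested for all 10 genes with edgeR's quasi-likelihood test on raw counts and Benjamini-Hochberg adjustment over 17144 genes, a gene being called at an adjusted p under 0.05 with at least a 2-fold change. None of the 10 was called, against a background of 0.35% of all genes. By edgeR 2 had an unadjusted p under 0.05, beside 1743 of all 17144 genes. DESeq2 and limma called none either, beside 1.97% of all genes by DESeq2. Limma called 49 and 43 of 17016 genes at pseudocounts of 1 and 0.1. *Aurkc* was lower after growth *in vitro*, at 218 ± 12.9 against 437 ± 158 normalized CPM (SD, n = 3 each), and its 3 *in vitro* libraries lay below all *in vivo* libraries. Its log2 fold change was -1.004 ± 0.34 (SE, adjusted p = 0.367 by edgeR). With the pseudogene reads added to *Aurkc* the log2 fold change was -0.93 (adjusted p = 0.393 by edgeR). *Bub3* was higher *in vitro*, at 88.1 ± 27.5 against 44.5 ± 3.48 normalized CPM, with a log2 fold change of 0.98 ± 0.35 (SE, adjusted p = 0.398 by edgeR) and groups that did not overlap. The *Bub3* TPM values were 16.3, 17.3 and 17.1 *in vivo* and 18.99, 34.5 and 46.3 *in vitro*. Neither difference passed the test across all genes. The MII groups also differed in donor age and hormone treatment, which cannot be told apart from growth.

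*Aurka* (log2 fold change 0.25 ± 0.30) and *Mad1l1* (-0.60 ± 0.36) also had groups apart on the normalized CPM scale, which makes 4 of 10 members, where 16.2% of all genes had groups apart. In TPM both overlapped between *in vivo* and *in vitro*, and *Incenp* was apart instead, while its log2 fold change from counts was 0.51 ± 0.33. *Bub1b* was at 1283 ± 19.99 and 1292 ± 635 normalized CPM, a log2 fold change of -0.01 ± 0.37, and *Ttk* had -0.06 ± 0.39. *Bub1* had a log2 fold change of -0.49 ± 0.53 and *Aurkb* 1.61 ± 1.19. *Aurkb* had 8, 13 and 16 reads *in vivo* and 1, 31 and 87 reads *in vitro*, and without *in vitro* library 3 its log2 fold change was 0.14. *Mad2l1* had 0.30 ± 0.52, and its value rested on MII *in vivo* library 1, which held 271 TPM beside 57.7 and 84.9 TPM. Without that library *Mad2l1* was called as higher *in vitro* (log2 fold change 1.44, adjusted p = 0.0278 by edgeR), and it was the only member called in that fit. The median log2 fold change of the 10 genes was 0.12, and that of all genes 0.04.

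**Figure D2:**
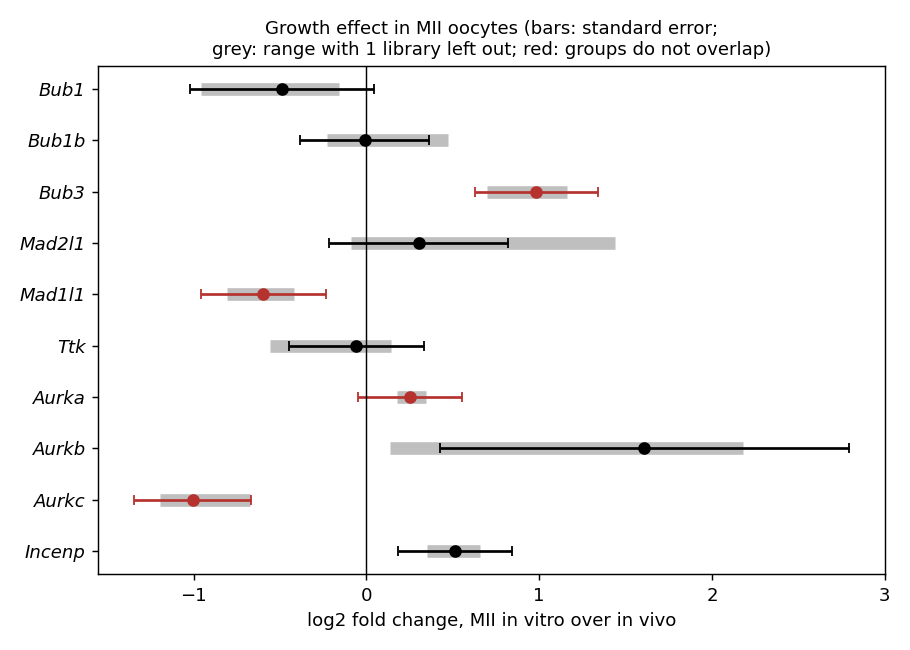
Log2 fold change of MII oocytes grown *in vitro* over *in vivo* for the 10 genes (points, edgeR) with standard errors; grey bands span the values with 1 library left out, and red marks genes whose 3 libraries per group do not overlap in normalized CPM. *Aurkc* lies at -1.004 and *Bub3* at 0.98, and the band of *Mad2l1* reaches 1.44.

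The share of *Aurkc* in Aurora kinase RNA did not overlap between the MII groups in these libraries. *Aurkc* made up 86.3, 71.7 and 78.1% of the summed TPM of the 3 Aurora genes *in vivo*, and 64.0, 60.3 and 62.5% *in vitro*. Every *in vivo* library lay above every *in vitro* library. *Aurkc* exceeded *Aurka* in TPM by 6.34, 2.55 and 3.59 times *in vivo* and by 1.78, 1.54 and 1.73 times *in vitro*, and *Aurkb* supplied at most 1.46% in any MII library. With 3 libraries against 3, an exact two-sided permutation test cannot go below p = 0.1, and the shares are given as a description. The *Aurkc* difference that enters these shares was not called (adjusted p = 0.367 by edgeR). The *Aurkc* values carry the shared-sequence limit stated above, and shares with the pseudogene reads added are not given.

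**Figure D3:**
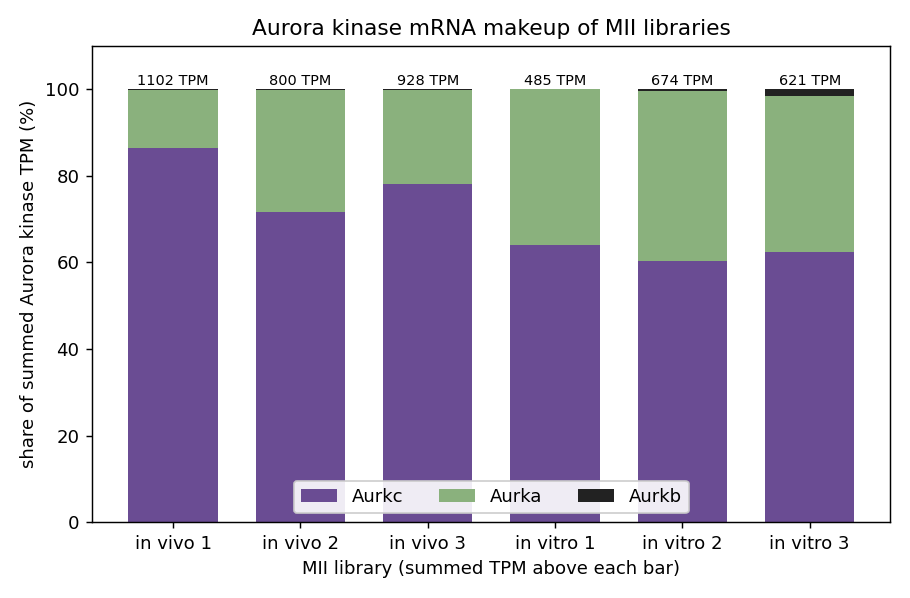
Share of each Aurora kinase gene in the summed Aurora TPM of the 6 MII libraries, with the sum above each bar. The *Aurkc* share lies between 71.7 and 86.3% *in vivo* and between 60.3 and 64.0% *in vitro*.

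In oocytes of primordial and primary follicles no growth or stage effect on any of the 10 genes was called. By edgeR over 15317 genes, 0 of 10 members were called in primordial follicles *in vitro* against *in vivo* (background 0.0326%), 0 in primary follicles *in vitro* against *in vivo* (0%), 0 in primary against primordial follicles *in vivo* (0.0522%), 0 in the same contrast *in vitro* (0%) and 0 for the difference between the growth effects at both stages (0.104%). None of the 10 had an unadjusted p under 0.05 by edgeR in any of these comparisons, where 1479 to 1799 of 15317 genes had. DESeq2 and limma called none of the 10. Limma called 0 of all 15270 genes in each of these comparisons, so its result says nothing particular about the members. In the same order DESeq2 called 6.8%, 2.04%, 4.7%, 3.8% and 4.67% of all genes, and it gave no adjusted p for *Incenp* and *Ttk*. Standard errors of single log2 fold changes ran from 2.27 to 3.85 in the 4 comparisons of groups.

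The largest differences among these rested on 1 or 2 libraries. *Aurkc* in primary follicles, with 407 reads *in vitro* and 1 read *in vivo*, gave a ratio of CPM of 385 with a 95% exact interval of 68.7 to 15242, which covers counting error only. Its log2 fold change was 7.54 ± 3.85 (unadjusted p = 0.05003, adjusted p = 0.518 by edgeR), and *in vitro* library 2 held no read. Against primordial follicles *in vitro*, with 3 reads, the ratio was 127 (43.1 to 618) and the adjusted p 0.492 by edgeR, with a log2 fold change of 6.59 ± 3.68. *Incenp* was lower in primary follicles *in vitro* by value, at a log2 fold change of -5.09 ± 2.66 (adjusted p = 0.526 by edgeR). Without the *in vivo* library of 848 TPM it was 0.50, of the opposite sign. That library also held the highest sum of the 4 blood cell markers, 7503 TPM, beside 2367 and 1157 TPM in the other *in vivo* and 174, 0 and 0.50 TPM in the *in vitro* libraries of primary follicles. Of these markers *Ptprc* was at 0 in all libraries of primary follicles. In primordial follicles *in vivo* the blood sums were 0, 175 and 7.77 TPM, where *Incenp* was at 341, 68.7 and 3.33 TPM. *In vitro* they were 0, 2.02 and 0.51 TPM, where *Incenp* was at 6.98, 112 and 0.82 TPM. The part of blood cells in the *Incenp* value was not tested. *Mad1l1* in primordial follicles had a log2 fold change of 4.69 ± 3.34 (adjusted p = 0.549 by edgeR), with 4216, 38 and 392 reads *in vitro* and 104, 106 and 79 reads *in vivo*, so that the groups overlapped.

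*Bub1* was the single member whose groups did not overlap in any of these contrasts. It was at 3.03, 4.28 and 7.51 TPM in primary follicles *in vitro*, at 0, 0.41 and 2.02 TPM in primary follicles *in vivo* and at 0, 1.19 and 1.39 TPM in primordial follicles *in vitro*. Its log2 fold changes were 2.53 ± 3.28 and 2.28 ± 3.25 (adjusted p = 0.939 and 0.946 by edgeR), and 9.99% and 11.2% of all genes had groups apart in the same contrasts. No member had groups apart between primordial follicles *in vitro* and *in vivo* or between primary and primordial follicles *in vivo*, beside 6.59% and 6.39% of all genes. The 10 granulosa cell markers summed to 1084, 597 and 2254 TPM in primary follicles *in vitro*. In those grown *in vivo* they summed to 349, 532 and 352 TPM. The 9 markers listed for dividing somatic cells summed to 340, 494 and 387 *in vitro* against 258, 150 and 397 TPM *in vivo*. These 9 reached 502 to 828 TPM in MII *in vivo* and 516 to 988 TPM in MII *in vitro*, so they do not mark somatic cells alone. Of the 10 granulosa cell markers, *Fshr* was at 0 in all libraries of primary follicles and *Cyp19a1* in those grown *in vivo*, while the others were detected in both groups. The part of granulosa cells in the *Bub1* and *Aurkc* values was not tested.

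MII oocytes were set against primary follicles in a fit of all 18 libraries, in which stage and library method cannot be told apart and the median gene lay 1.16 higher in MII *in vivo* and 0.65 higher in MII *in vitro* on the log2 scale. *In vivo*, 3 of 10 members were called, all higher in MII, where 20% of 20648 genes were called and 15.7% called higher. These were *Aurka* (log2 fold change 7.31 ± 2.30, adjusted p = 0.0335), *Aurkc* (adjusted p = 0.0206) and *Bub1b* (6.69 ± 2.27, adjusted p = 0.0453), all by edgeR. For *Aurkc*, 11482 reads in MII against 1 read in primary follicles gave a ratio of CPM of 29016, with a 95% exact interval from 5207 to 1.15e+06 for counting error only. *Mad2l1* was higher in all MII libraries yet not called (4.76 ± 2.78, adjusted p = 0.196 by edgeR). The median of the 10 genes was 3.22.

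*In vitro*, 1 of 10 members was called, where 16% of genes were called and 12.5% called higher. It was *Aurka* (7.41 ± 2.31, adjusted p = 0.0372 by edgeR). *Bub1b* had 5.71 ± 2.16 (adjusted p = 0.0752), *Aurkc* 4.74 ± 2.06 (adjusted p = 0.111) and *Mad2l1* 4.40 ± 2.73 (adjusted p = 0.233), by edgeR. Groups were apart for 6 members *in vitro* and 7 *in vivo*, beside 48.9% and 38% of all genes. The median of the 10 was 2.44. DESeq2 called 5 members *in vivo* and 4 *in vitro*, beside 38.8% and 34.4% of all genes, and gave no adjusted p for *Aurka*, *Incenp* and *Ttk*. Leaving out any single library of either contrast left 0 or 1 member called *in vivo*, where *Aurkc* alone stayed called with any MII library or primary library 3 left out, and 0 *in vitro*. Whether the *in vivo* and *in vitro* contrasts differ was not tested.

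The partners of these genes followed in 3 lists of 50 genes in all. Among MII oocytes grown *in vitro* and *in vivo* none of the 49 partners tested was called by edgeR, DESeq2 or limma. By edgeR 1 had an unadjusted p under 0.05, beside 1743 of all 17144 genes. In the 5 comparisons among microdissected libraries edgeR called 0 of 50, with 0 to 6 genes at an unadjusted p under 0.05. Of all 15317 genes, 1479 to 1799 had such a p in these comparisons. Limma called 0 partners, where it called 0 of all 15270 genes. DESeq2 called 2 in primordial follicles (6.8% of all genes) and 1 for the difference between growth effects (4.67% of all genes). Between MII and primary follicles *in vivo*, 12 of 50 were called, 11 higher and 1 lower, with the background of 20% given above. By list, 6 of 20 kinetochore and checkpoint partners, 3 of 11 Aurora and passenger partners and 3 of 19 genes of the anaphase-promoting complex and its regulators were called. Their median log2 fold changes were 4.67, 3.05 and -0.45, and the first was 3.72 when genes with 3 reads or fewer in each library of a group were set to the bound that 3 reads allow.

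The 5 partners with the smallest p *in vivo* were *Fbxo43*, *Cdca8*, *Haspin*, *Cenpa* and *Dsn1*. *Fbxo43*, which encodes the inhibitor that keeps MII oocytes from leaving metaphase, was at 5914, 1470 and 2161 reads in MII and 0, 2 and 0 reads in primary follicles (adjusted p = 0.0127 by edgeR). *Cdca8*, the borealin subunit of the chromosomal passenger complex with *Incenp* and Aurora B or C, was at 456, 260 and 294 TPM in MII and 0.56, 0.37 and 0.38 TPM in primary follicles (log2 fold change 8.80 ± 1.89, adjusted p = 0.0147 by edgeR). *Haspin*, the kinase that places that complex at centromeres, was at 357, 797 and 546 reads in MII and 0, 1 and 0 reads in primary follicles. *Cenpa*, the centromeric histone, and *Dsn1*, a kinetochore subunit, were at 55.3 ± 1.38 and 354 ± 158 TPM in MII and at 0.02 ± 0.03 and 0.54 ± 0.94 TPM in primary follicles (n = 3). All 5 had groups apart, as did 38% of all genes in this contrast. Since they were picked by smallest p in the same contrast, this adds no support.

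*In vitro*, 7 of 50 partners were called between MII and primary follicles, 6 higher and 1 lower, where 16% of all genes were called. The 5 with the smallest p were *Fbxo43*, *Cdca8*, *Dsn1*, *Tpr* and *Birc5*. *Tpr*, a nuclear pore protein that anchors the *Mad1l1* product, was the lower gene, at 11.5, 37.4 and 33.9 TPM in MII and 333, 478 and 141 TPM in primary follicles (log2 fold change -4.06 ± 1.24, adjusted p = 0.0340 by edgeR). *Birc5*, the survivin subunit of the passenger complex, was at 58.0, 121 and 121 TPM in MII and 1.91, 2.22 and 2.63 TPM in primary follicles (5.02 ± 1.59, adjusted p = 0.0392 by edgeR). *Birc5* and *Cdca8* were thus called in both contrasts. *Incenp*, the scaffold of the same complex, was not called in either, at log2 fold changes of -3.23 ± 1.98 *in vivo* and 2.38 ± 1.91 *in vitro*. *In vivo* it was at 848, 3.11 and 14.03 TPM in primary follicles and 66.8, 58.2 and 63.6 TPM in MII. Only the primary library of 848 TPM lay above the MII libraries.

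**Figure D4:**
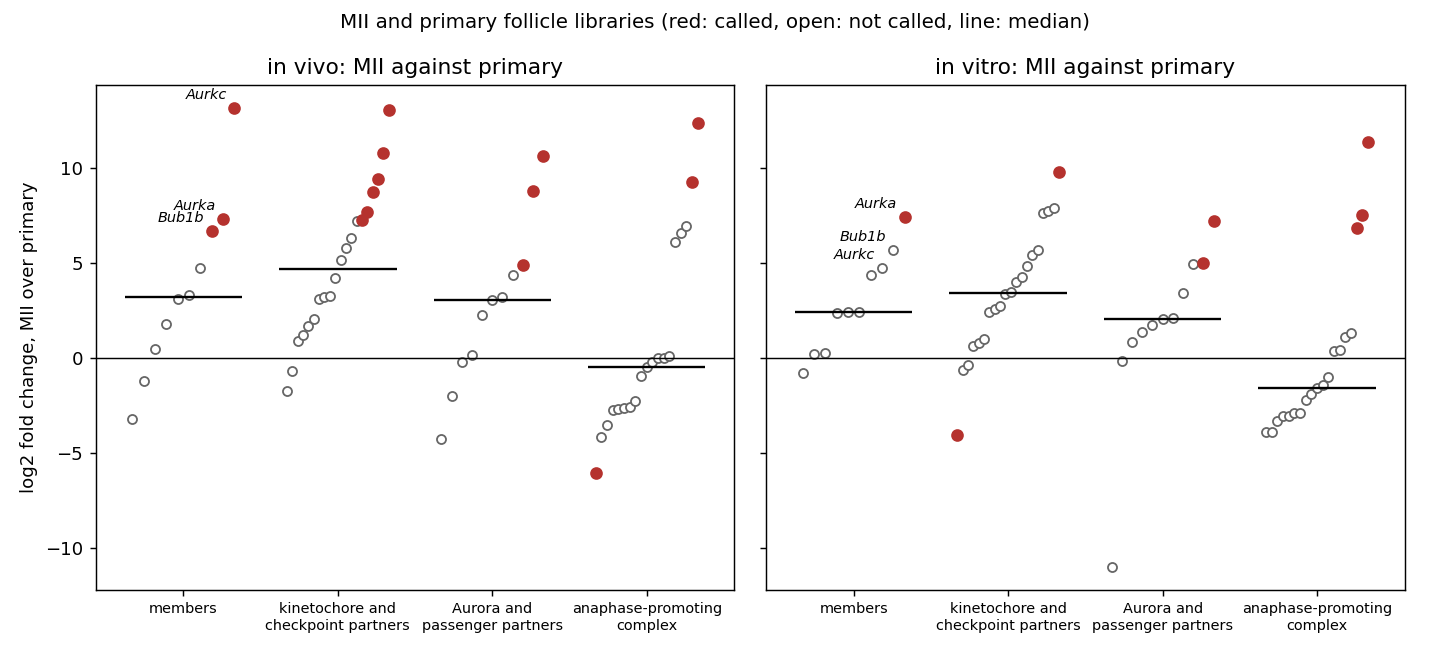
Log2 fold change of MII over primary follicle libraries (edgeR, all 18 libraries) for the 10 members and the 3 partner lists, *in vivo* on the left and *in vitro* on the right; each point is a gene, red points are called and lines are medians. *In vivo* 3 members and 12 of 50 partners are called, *in vitro* 1 member and 7 of 50 partners; the fitted values of genes with almost no reads in 1 group have no firm size.

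The genes whose levels followed the members most closely over the 18 libraries are given as a description, since the libraries fall into a microdissected and an MII cluster. By Spearman's rho of log2(TPM + 1), *Aurkc* was followed by *Nlrp9c* and *Tcl1b1* (0.99 each), both oocyte genes. *Bub1b* was followed by *Stard13* (0.96), *Brox* (0.96) and *Cdc45* (0.95), *Aurka* by *Gm28551* (0.96) and *Fkbp5* (0.95), and *Mad2l1* by *Eif2ak1* (0.95) and *Spg20* (0.95). *Aurkb* and *Bub3* had no partner above 0.79 and 0.85. Among the 6 group means in TPM, *Aurkc* had MII *in vivo* first, MII *in vitro* next and primary follicles *in vitro* after them, with no overlap of ranges between these neighbours. For *Bub1b*, *Aurka* and *Mad2l1* the MII groups overlapped with each other and stood apart from the next group, and the 4 microdissected groups overlapped in sequence.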

How the data were processed

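Per the study's methods, the authors trimmed reads with Trim Galore 0.4.1, aligned with TopHat2 to the mm10 genome and assigned reads to genes with featureCounts. How strand and multiply mapped reads were treated is not given in the sources used here. The deposited files hold raw counts and TPM, both per gene and library. Samples were grouped by their labels. Raw counts were tested with edgeR 4.0.16 (R 4.3.3, TMM, robust quasi-likelihood, genes with at least 10 counts in total) in 3 fits, of the 12 microdissected, the 6 MII and all 18 libraries. The standard error of an edgeR log2 fold change was its absolute value divided by the square root of the test's F statistic. DESeq2 1.42.0 and limma 3.58.1 (deposited TPM, pseudocounts 1 and 0.1) were alternatives. The edgeR steps were tested on simulated data. These had less spread between libraries than the fits of the 12 and the 18 libraries (coefficient of variation 2.02 and 1.62 by edgeR). The simulation thus cannot show how many changes those fits would miss. The members and lists were chosen with earlier results of these data known. Partners are named where called, at most 5 by smallest p per comparison, and for likeness the highest correlations. Shared 50-base stretches and gene positions came from GENCODE M21 (GRCm38, the same build as mm10). Libraries were not paired by replicate number, as the labels give no pairing. Deviations of same-numbered libraries correlated by -0.03 to 0.09, which cannot decide whether they share a source.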

Additional observations from a re-analysis of the deposited data

How the results depend on the processing

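The 10 settings beside the one reported, and the omission of each library, were tried. Where the reported count of called members or partners was above 0, it moved by over 1.5 times in 32 of 48 cases. Where it was 0, other settings gave a count above 0 in 3 of 148 cases. For members between MII and primary follicles *in vivo* (3 as reported) the count was 5 by DESeq2, 5 by limma on log2(TPM + 1), 1 with the replicate block and 0 to 1 with a library left out. For members *in vitro* (1 as reported) it was 3 with DESeq2 size factors, 4 by DESeq2, 4 by limma with either pseudocount, 0 with the replicate block, 2 with only the groups compared and 0 to 0 with a library left out. For members in MII oocytes it was 0 to 1 with a library left out. For partners *in vivo* (12 as reported) it was 28 by DESeq2, 26 by limma with a pseudocount of 1 and 24 with 0.1. The counts over all genes moved too. *In vivo* 4126 of 20648 genes were called as reported and 7237 of 18675 by DESeq2. Limma called 6281 and 7126 of 20499 there, and the replicate block 2609 of 20648. For partners *in vitro* (7 as reported) the count was 13 with DESeq2 size factors, 3 without a filter and 11 with filterByExpr. It was 20 by DESeq2, 21 and 15 by limma, 3 with the replicate block and 22 with only the groups compared. In the same order, all genes called *in vitro* were 4815 of 20648, 2978 of 25932 and 4440 of 16225. They were then 6418 of 18675, 6583 and 7110 of 20499, 2026 of 20648 and 6917 of 17991, beside 3309 of 20648 as reported. DESeq2 called 2 partners in primordial growth and 1 for the difference of growth effects. Of 360 values of single members, 12 changed sign. In MII growth *Bub1b* was 0.055 with all 18 libraries in a fit, 0.014 by library size alone, 0.039 by limma with either pseudocount, 0.10 with the replicate block and -0.23 to 0.47 with a library left out. *Ttk* was 0.033 with all 18 libraries in a fit and -0.56 to 0.14 with a library left out, *Mad2l1* -0.088 to 1.44, and *Incenp* in primary growth -5.99 to 0.50. The cause was not tested. Over all genes, edgeR and DESeq2 called 60 and 337 genes in MII growth and 5 and 812 in primordial growth. The *Aurkc* fit with pseudogene reads was chosen after seeing the data and kept the direction and call in each of its 5 comparisons. Nothing in the labels gives libraries with the same replicate number a shared source. Whether calls lost under the block mark a weaker effect was not tested. Among the microdissected groups 19 of 40 contained a library with 3 reads or fewer, although these libraries were the deeper ones.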
